A study of Mus musculus with 3 samples.

Results

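The cytosolic ribosomal protein genes are the genes for the protein subunits of the ribosome that translates nuclear-encoded mRNA. They were chosen by name from the deposited count table, as protein-coding genes with the symbols Rpl or Rps and a number (with or without a closing a or x), Rplp0 to Rplp2, or Rpsa, and 76 of 56748 genes matched. Of these, 46 encode proteins of the large subunit and 30 proteins of the small subunit, and the name rule uses no measured value, although these genes were taken up with earlier results of these data known. The pattern leaves out a few genes of the same kind, among them Rps3a1 and the fusion gene Fau. The data are RNA sequencing of visceral adipose fibroblasts (genotype WT, from mice fed a high-fat diet), with 1 library for each of 3 conditions. These were recombinant mouse oncostatin M (Osm) at 3 ng/mL for 24 h, recombinant human TGF-beta1 (transforming growth factor) at 3 ng/mL for 24 h, and vehicle, for which the labels give no time. All 3 libraries came from the non-adipocyte fraction of the fat pad after magnetic depletion of cells carrying CD45, CD31 or Ter119, so they hold primary cells enriched by exclusion. The labels give neither the number of mice nor their age.

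A ribosome holds 1 copy of nearly every one of these proteins, and growing cells spend a large share of their transcription on them. The mRNAs of these genes in mammals typically start with a C and a run of C and T bases, the terminal oligopyrimidine (TOP) tract, through which mTORC1 and the binding protein Larp1 control their translation without the mRNA level having to change. New ribosomes also need ribosomal RNA, made by RNA polymerases I and III, and a large set of assembly factors in the nucleolus. In fibroblasts, TGF-beta1 is the classical inducer of collagen production, and Osm belongs to the interleukin 6 cytokines, whose shared receptor chain is gp130.

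The TOP tract can be read at the annotated start sites. RefSeq promoters (build GRCm38.p6, an earlier build than that of the count table) were matched for 56 of the 76 genes. A C at the start site followed by at least 4 bases that are C or T was found in 13 of the 56, which is 23.2%, against 3.01% of all 27025 genes with a promoter in RefSeq's table and 0 of 69 mitochondrial ribosomal protein genes. The lines show 15 bases on either side of the start-site boundary for 6 of the 13, from the strand of the gene, with the run of C and T bases that opens the transcript in capitals, so that its place and length can be compared.
Rps6 (chr4:86857353-86857382, minus strand): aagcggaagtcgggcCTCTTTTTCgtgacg
Rpl15 (chr14:18270972-18271001, minus strand): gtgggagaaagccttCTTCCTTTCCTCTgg
Rpl35 (chr2:39005117-39005146, minus strand): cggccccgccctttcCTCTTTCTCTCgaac
Rps10 (chr17:27635230-27635259, minus strand): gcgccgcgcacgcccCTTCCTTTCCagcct
Rps27 (chr3:90213634-90213663, minus strand): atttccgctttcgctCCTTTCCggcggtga
Rpl28 (chr7:4792950-4792979, plus strand): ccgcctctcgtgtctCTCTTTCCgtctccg
The runs were 9 bases long in Rps6, 13 in Rpl15, 11 in Rpl35, 10 in Rps10, 7 in Rps27 and 8 in Rpl28. An annotated start can lie a few bases from the position that cells use most, so a start without the run says only that these letters are not at that annotated base. Over the 300 bases from 250 before to 50 after the start, the motif CTTCCG, on either strand (CGGAAG on the other), was present in 39 of the 56 genes, or 69.6%. It was present in 56.5% of the mitochondrial ribosomal protein genes and in 18.8% of all genes. The motif TATAAA, searched between 40 and 20 bases before the start on the strand of the gene, was in 0 of the 56 and in 2.41% of all genes.

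A second set of sequences bears on how far single values can be trusted. Most ribosomal protein genes have processed pseudogenes, inserted copies of the mRNA without introns, and a read from such a stretch can be assigned to the gene, to the copy or to neither. Of the 76 genes, 74 had at least 1 other gene in the table with at least 20% of its 50-base windows inside the ribosomal protein transcript, 491 such copies in all. This rule asked neither for a pseudogene nor for a place outside the gene itself, so some may be small RNA genes within it. A copy by this rule also need not match the gene closely along its whole length. Across the 76 genes the median share of coding windows that also occur elsewhere was 93.1%, and for 29 genes every coding window did. Sharing was lower over all windows of a gene's transcripts, where 40 of the 76 genes reached 20%. A window is not a read, and the length of the reads was not used here. Each pair of lines gives 60 bases of coding sequence (GENCODE M21 transcripts, GRCm38) of a gene whose values are described below and of a copy that took reads, with the bases that differ in capitals.
Rps10 (coding bases 361 to 420): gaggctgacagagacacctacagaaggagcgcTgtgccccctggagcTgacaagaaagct
Rps10-ps2 (the aligned bases): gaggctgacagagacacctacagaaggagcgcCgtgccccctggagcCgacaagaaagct
Rps27a (coding bases 31 to 90): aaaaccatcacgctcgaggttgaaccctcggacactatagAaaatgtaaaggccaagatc
Rps27a-ps3 (the aligned bases): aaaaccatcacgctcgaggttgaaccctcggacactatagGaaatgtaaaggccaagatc
Rpl7a (coding bases 1 to 60): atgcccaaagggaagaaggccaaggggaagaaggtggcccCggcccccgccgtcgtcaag
Rpl7a-ps5 (the aligned bases): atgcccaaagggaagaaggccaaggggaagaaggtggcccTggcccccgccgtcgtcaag
Rpl29 (coding bases 241 to 300): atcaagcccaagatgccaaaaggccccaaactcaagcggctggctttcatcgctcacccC
Gm6344 (the aligned bases): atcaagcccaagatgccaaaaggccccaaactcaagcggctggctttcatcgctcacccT
Over the aligned coding bases the copies were 98.99% (Rps10-ps2), 99.79% (Rps27a-ps3), 98.86% (Rpl7a-ps5) and 99.38% (Gm6344) identical; the alignment covered 792 of the 798 coding bases of Rpl7a and all of those of the other 3 genes. Rps12-ps3 matched Rps12 at all 396 coding bases, and Rps27rt, a protein-coding retrogene, matched Rps27 at all 252.

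The count totals were 17319872 for Osm, 18533741 for TGF-beta1 and 18336068 for vehicle. The 6 fibroblast markers were detected in all 3 libraries and summed to 11428, 15640 and 12318 CPM (counts scaled to library size) in Osm, TGF-beta1 and vehicle, while leukocyte, endothelial, adipocyte and mesothelial markers each summed to at most 50.4 CPM and all 5 erythroid markers were at 0. The endothelial sum was 40.7, 36.3 and 50.4 CPM in Osm, TGF-beta1 and vehicle, and the leukocyte sum 15.3, 13.9 and 17.6 CPM. The part of these cells in the values below was not tested. No difference below could be checked in replicates. The intervals given are exact at 95% (conditional binomial, Clopper-Pearson) and reflect counting error alone. In bulk RNA, fewer cells of a type and less RNA per cell cannot be told apart.

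The ribosomal protein genes held 500706 counts in Osm, 540809 in TGF-beta1 and 531084 in vehicle, which is 2.89%, 2.92% and 2.90% of all counts. After TMM scaling their summed level was 28853 CPM in Osm, 29340 CPM in TGF-beta1 and 28862 CPM in vehicle. The sum over the 75 genes with at least 1 CPM in a library was 0.9997 times vehicle with Osm (interval 0.9958 to 1.0036) and 1.0166 times vehicle with TGF-beta1 (interval 1.0127 to 1.0204). The pool as a whole therefore differed from vehicle by under 2% with either ligand. The side of 1 on which the Osm sum falls depends on the processing. It was 0.9955 (interval 0.9917 to 0.9994) with DESeq2 size factors. With the counts of all copies added it was 1.0038 (interval 1.0001 to 1.0075). By subunit, the large-subunit genes summed to 0.994 times vehicle with Osm and 1.02 times with TGF-beta1, and the small-subunit genes to 1.01 times vehicle with each. Both comparisons share the vehicle library.

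Per length, the levels spread widely around this stable sum. In FPKM, which the authors deposited, the median of the 75 genes was 175 in Osm, 183 in TGF-beta1 and 182 in vehicle. The genes of the stalk, through which the ribosome recruits elongation factors, were at the top. Rplp1 was at 1481 FPKM in Osm, 1536 in TGF-beta1 and 1392 in vehicle, and Rplp0 at 929, 972 and 893 FPKM. The next 3 by level in vehicle were Rps15 at 593, 569 and 598 FPKM, Rpl23a at 518, 553 and 562 FPKM, and Rpl41, which encodes the shortest ribosomal protein, at 494, 584 and 515 FPKM in Osm, TGF-beta1 and vehicle. Rplp2, the other acidic stalk protein, was far lower at 99.8, 96.3 and 98.7 FPKM. These differences are between genes and rest partly on the gene lengths used, which include longer transcripts with retained introns.

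At the low end of the FPKM values stood Rpl24, Rps10, Rpl13a, Rpl21 and Rpl35a. Rpl24 had 13 counts in Osm, 6 in TGF-beta1 and 8 in vehicle, below 1 CPM in each library, and was left out of the ratios. Rps10 had 28, 49 and 43 counts in Osm, TGF-beta1 and vehicle, whereas its pseudogene Rps10-ps2 had 1653, 1682 and 1787. Rpl13a, a subunit also studied for roles outside the ribosome and often used as a reference gene in quantitative PCR, was at 19.2, 19.6 and 17.3 FPKM. Rpl21 was at 20.7, 35.6 and 26.3 FPKM and Rpl35a at 33.3, 31.2 and 34.4 FPKM. The place of Rpl35a depends on the gene length of 3526 bases. Per kilobase of its coding transcript of 519 bases it was at 234 CPM in vehicle. On that scale the median was 388, and Rpl22, for one, was lower at 96.1. In the table's own coordinates (mm39), 4 of the 76 genes overlap a gene other than a small RNA gene on the same strand. Rpl24, Rps10 and Rpl13a are 3 of these 4. The overlapping genes Gm28037, Gm49804 and Gm45713 were at 0 counts in all 3 libraries. The fourth, Rpl19, overlaps Gm11629 and was at 389, 385 and 390 FPKM. What the overlap did to the counts was not tested, so the levels of these genes are levels in the table.

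**Figure D1:**
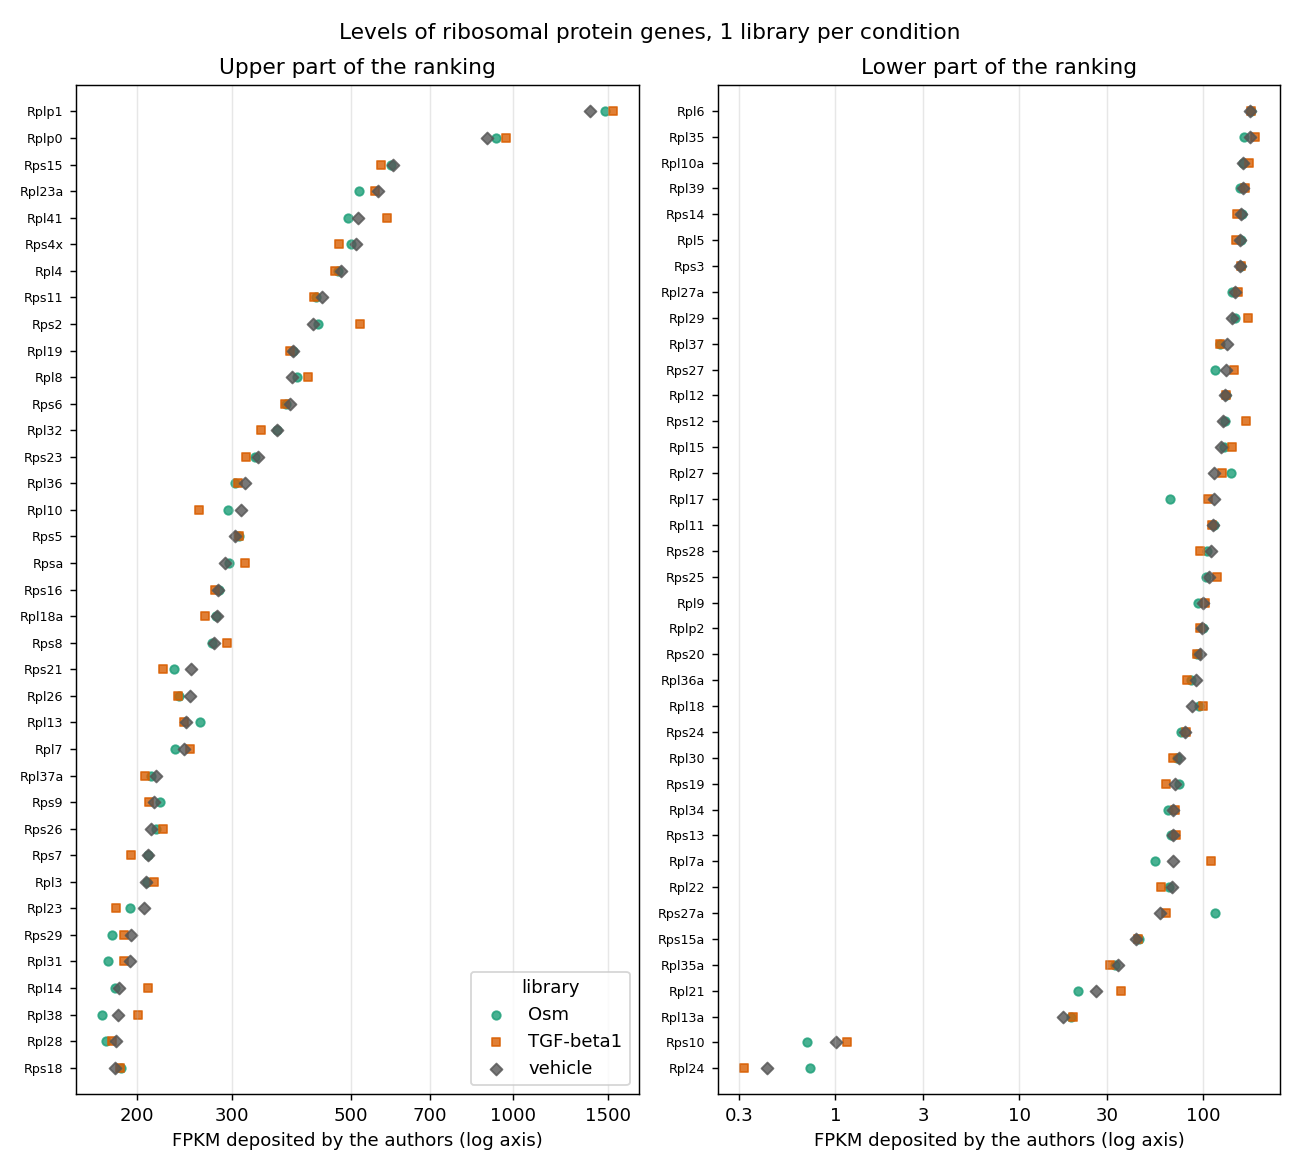
FPKM (log axis, a separate range in each panel) of 75 of the 76 ribosomal protein genes, ranked by their level in vehicle from top left to bottom right, with a circle for Osm, a square for TGF-beta1 and a diamond for vehicle, 1 library each. For most genes the 3 symbols lie close together; Rps27a stands to the right in Osm, Rpl17 to the left in Osm, and Rpl7a to the right in TGF-beta1.

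The first comparison asks what Osm did to these mRNAs. The median log2 ratio of Osm over vehicle was -0.02 over the 75 genes and 0.00 over all 13712 genes with at least 1 CPM in a library. A gene was counted as higher or lower where its log2 ratio was at least that of a 1.2-fold difference and the interval excluded a ratio of 1. With Osm, 2 of 75 were at least 1.2-fold higher, against 4.92% of all genes, and 3 were at least 1.2-fold lower, against 4.67%. At 2-fold, 1 was higher, where 0.948% of all genes were, and 0 were lower, where 0.649% were. Set against genes of like level, the shares were larger. Of the 73 ribosomal protein genes at or above 100 CPM, 2.74% were higher and 4.11% lower at 1.2-fold and 1 was 2-fold higher, beside 1.88% higher, 1.96% lower and 2 of 2346 at 2-fold among protein-coding genes at or above 100 CPM. These shares rest on 5 genes. In all, 92.0% of the genes lay within 1.2-fold of vehicle, beside 77.8% of all genes and 96.2% of protein-coding genes at or above 100 CPM.

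Rps27a had the highest Osm ratio. It encodes a fusion of ubiquitin with a small-subunit protein, which is cut after translation, and lies at chr11:29495846-29498109 (mm39, minus strand). It had 4010 counts in Osm, 2277 in TGF-beta1 and 2119 in vehicle, or 231, 124 and 115 CPM. Osm stood apart from the other two libraries, which were close to each other, and the ratio of Osm over vehicle was 2.01 (interval 1.90 to 2.12). Its copies with at least 50 counts, Rps27a-ps2 and Rps27a-ps3, were not higher: Rps27a-ps2 had 78, 103 and 96 counts in Osm, TGF-beta1 and vehicle, and Rps27a-ps3 had 107, 178 and 142. With the counts of all its copies added, the ratio was 1.89 (interval 1.79 to 1.99). Clhc1, which overlaps Rps27a on the opposite strand, had 4, 2 and 5 counts.

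The polyubiquitin gene Ubb and the fusion gene Fau were set beside it after its value had been seen. Ubb was at 366, 401 and 396 CPM in Osm, TGF-beta1 and vehicle, an Osm over vehicle ratio of 0.923 (interval 0.892 to 0.955). Fau, a fusion of a ubiquitin-like protein with a small-subunit protein, was at 236, 227 and 219 CPM, an Osm ratio of 1.08.

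Rpl27 of the large subunit was the other gene counted as higher, with 217, 195 and 176 CPM in Osm, TGF-beta1 and vehicle and a ratio of 1.24 (interval 1.18 to 1.30) for Osm over vehicle. Adding its copies left the ratio at 1.24. The next highest Osm ratios were 1.11 for Rpl13a, 1.10 for Rpl18, 1.07 for Rplp1 and 1.07 for Rpl13.

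On the lower side, Rpl17 had 1527 counts in Osm, 2612 in TGF-beta1 and 2795 in vehicle, a ratio of 0.579 (interval 0.544 to 0.617) for Osm over vehicle. Its pseudogene Rpl17-ps10, 99.28% identical in the coding sequence, was on the other side of vehicle, with 3482 counts in Osm, 2120 in TGF-beta1 and 2360 in vehicle. A further copy, Rpl17-ps3, had 2202, 2138 and 2034 counts. Summed over the gene and its copies, the counts had a ratio of 1.06 (interval 1.03 to 1.10), so the lower value of Rpl17 was not seen in the sum. Rpl21 had 70.8, 121 and 89.3 CPM in Osm, TGF-beta1 and vehicle (Osm ratio 0.793, or 0.885 with copies), and Rpl7a had 97.8, 196 and 122 CPM (Osm ratio 0.802, or 0.860 with copies). Rps27 and Rpl31 had Osm ratios of 0.865 and 0.917. Rps10 had a ratio of 0.691, but on 28 against 43 counts its interval, 0.413 to 1.14, held 1. A gene not counted as different can gain a difference from its copies: Rpl29, at 168, 197 and 162 CPM, had an Osm ratio of 1.04 alone and 1.26 with copies, since Gm6344 had 1101 counts in Osm, 306 in TGF-beta1 and 289 in vehicle.

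The second comparison asks the same of TGF-beta1, with which more genes of the whole table passed the 1.2-fold rule. The median log2 ratio of TGF-beta1 over vehicle was 0.01 over the ribosomal protein genes and 0.01 over all genes. At the 1.2-fold rule, 5 of 75 were higher, which is 6.67%, against 18.0% of all genes, and 0 were lower, against 17.7%. At 2-fold, 0 were higher and 0 lower, where 2.27% and 4.79% of all genes were. In all, 93.3% lay within 1.2-fold of vehicle, beside 53.3% of all genes and 60.4% of protein-coding genes at or above 100 CPM. The interquartile range of the log2 ratios was 0.18 for the ribosomal protein genes and 0.48 for all genes, which include many at low counts, and 0.39 for protein-coding genes at or above 100 CPM.

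The highest of the 5 was Rpl7a, a large-subunit gene, with 1698 counts in Osm, 3612 in TGF-beta1 and 2245 in vehicle. TGF-beta1 was the high library and Osm the low one. The ratio of TGF-beta1 over vehicle was 1.61 (interval 1.52 to 1.69) and 1.38 (interval 1.32 to 1.44) with its 29 copies. Rps12, a small-subunit gene, was at 267, 346 and 260 CPM in Osm, TGF-beta1 and vehicle, with a TGF-beta1 ratio of 1.33 alone and 1.30 with copies. Rps2 was at 797, 948 and 778 CPM, with TGF-beta1 ratios of 1.22 alone and 1.23 with copies. These 3 stayed above 1.2-fold in the sum. Rpl21 had a TGF-beta1 ratio of 1.35 alone and 1.06 with its 46 copies, among which Rpl21-ps15 had 1280, 1154 and 1379 counts in Osm, TGF-beta1 and vehicle. Rpl29 had a TGF-beta1 ratio of 1.21 alone and 1.17 with copies.

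At the low end was Rpl10, which completes the large subunit late in its maturation, with 609, 535 and 640 CPM in Osm, TGF-beta1 and vehicle and a TGF-beta1 ratio of 0.835 (interval 0.813 to 0.858). Adding its copies gave 0.833, just past the 1.2-fold rule. Rpl22, Rps28, Rpl23, Rps21 and Rps19, a gene mutated in Diamond-Blackfan anaemia in humans, came next with TGF-beta1 ratios from 0.867 for Rpl22 to 0.896 for Rps19.

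Several genes known for further roles lay within 1.2-fold of vehicle with both ligands. Rps6, the subunit phosphorylated by S6 kinases downstream of mTORC1, was at 603, 595 and 610 CPM in Osm, TGF-beta1 and vehicle. Rpl5 and Rpl11, which bind Mdm2 when ribosome assembly fails, were at 630, 589 and 624 CPM and at 311, 302 and 305 CPM. Rpsa, also known as the laminin receptor, was at 944, 1005 and 923 CPM. Rpl3, a loop of which reaches towards the peptidyl transferase centre, was at 666, 682 and 661 CPM. The X-linked Rps4x, Rpl36a and Rpl39 had TGF-beta1 ratios of 0.928, 0.897 and 1.03. Rpl10, the lowest with TGF-beta1 at 0.835, is X-linked too.

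**Figure D2:**
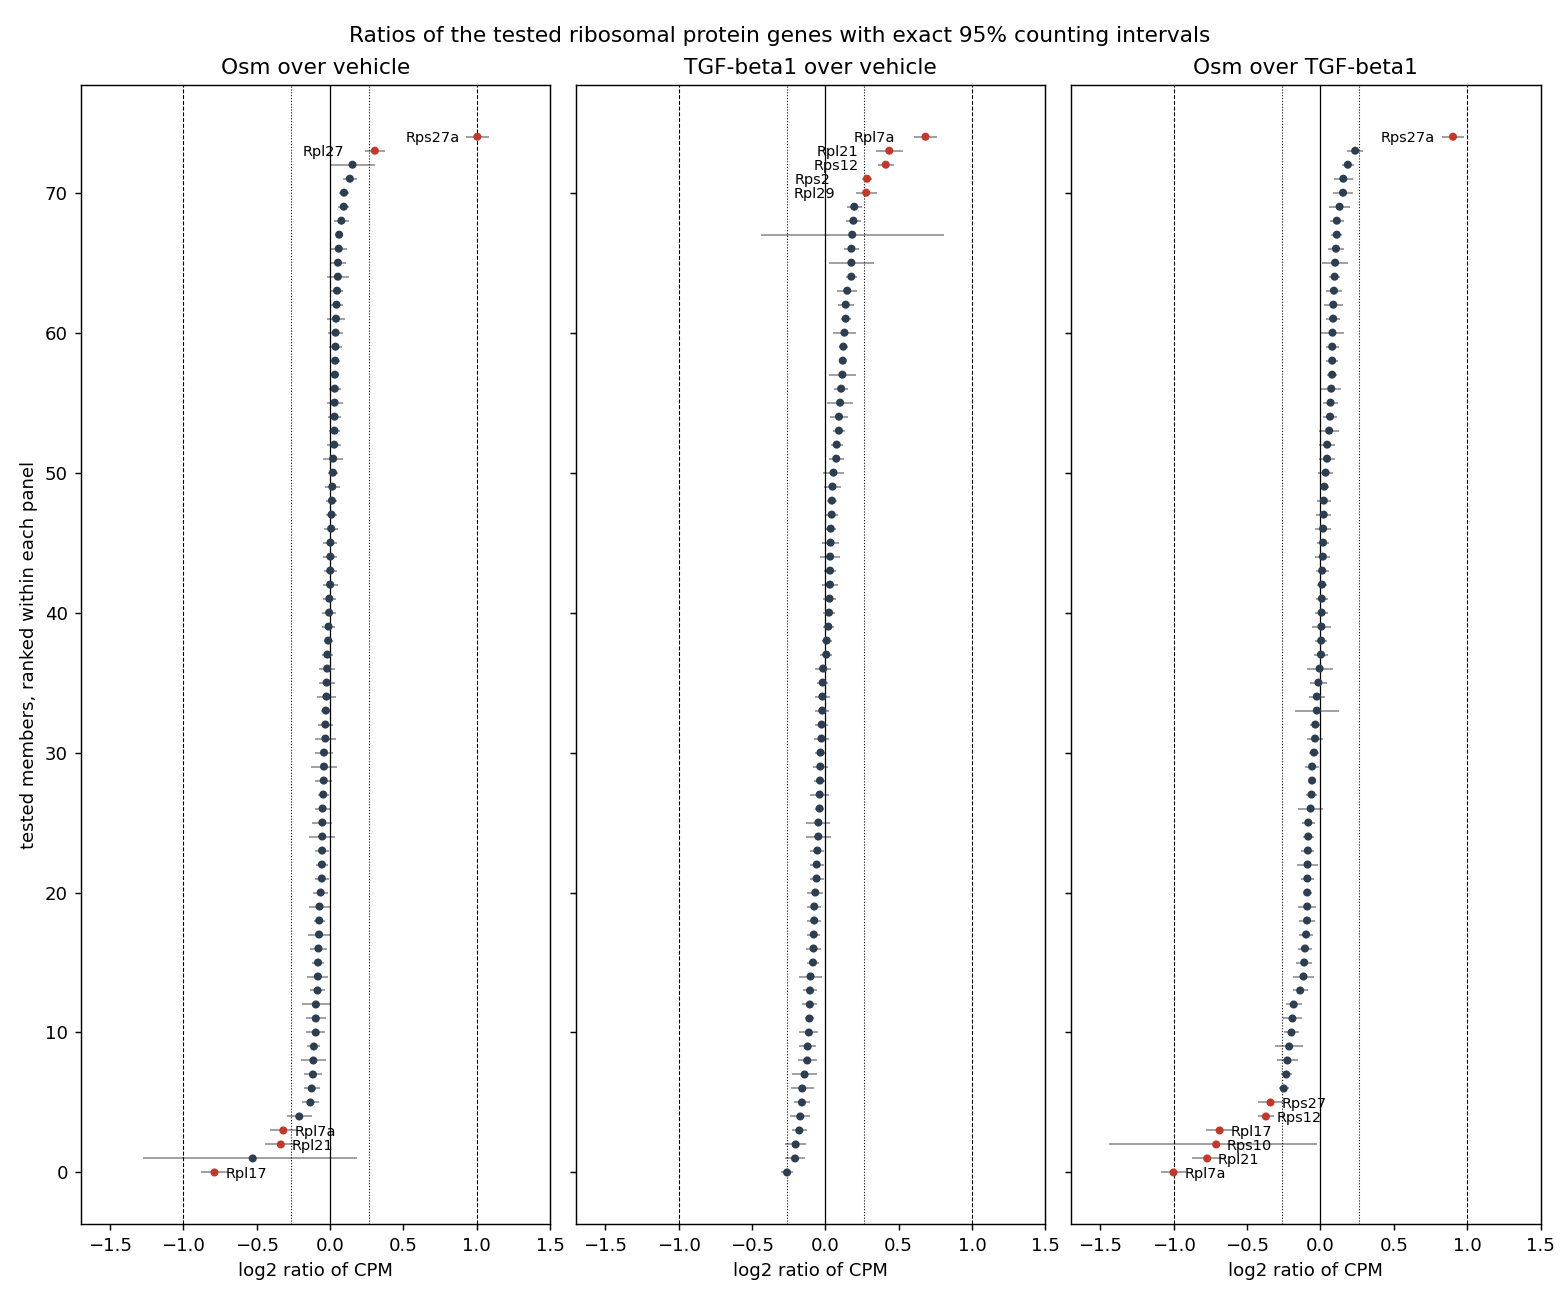
Log2 ratios of CPM of the 75 ribosomal protein genes with at least 1 CPM in a library, ranked within each panel, for each ligand over vehicle and for Osm over TGF-beta1 (1 library per condition). Horizontal lines are exact 95% counting intervals, dotted vertical lines mark 1.2-fold, dashed ones 2-fold, and named red points are the genes counted as higher or lower; all but a few of the points lie between the dotted lines.

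Set directly against each other, the Osm and TGF-beta1 libraries, 1 each, differed at 7 genes by the 1.2-fold rule. The interval alone excluded a ratio of 1 for 51 of the 75. In Osm over TGF-beta1 1 of 75 was at least 1.2-fold higher, against 18.5% of all genes, and 6 were at least 1.2-fold lower, against 17.4%. At 2-fold 0 were higher, where 5.08% of all genes were, and 1 was lower, where 2.42% were. The one higher was Rps27a at 1.87 (interval 1.78 to 1.97). The 6 lower were Rpl7a at 0.499, Rpl21 at 0.585, Rps10 at 0.607, Rpl17 at 0.621, Rps12 at 0.773 and Rps27 at 0.790, of which the value for Rps10 rests on 28 against 49 counts. With the copies added, Rpl7a was at 0.623 and Rps12 at 0.820, still past 1.2-fold, and Rpl21 at 0.837, just inside it. The sum was 1.05 for Rps10 (interval 0.984 to 1.12) and 0.953 for Rps27 (interval 0.907 to 1.00). For Rpl17 it was 1.12 (interval 1.08 to 1.16), higher in Osm and so opposite in direction to the gene alone. Rps27 had 2096, 2819 and 2570 counts in Osm, TGF-beta1 and vehicle and its identical retrogene Rps27rt had 957, 586 and 917.

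**Figure D3:**
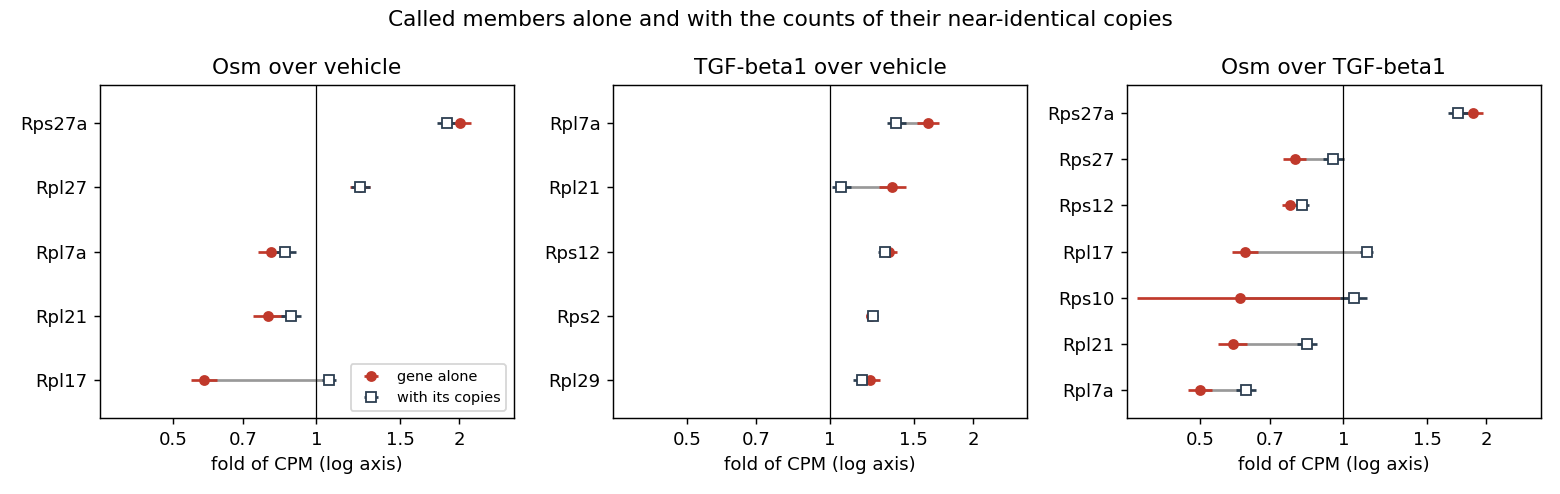
Fold of CPM (log axis) of the genes counted as higher or lower in each comparison, alone (filled circles) and with the counts of all their near-identical copies added (open squares), with exact 95% counting intervals. Rpl17 and Rps10 move past a ratio of 1 when the copies are added, whereas Rps27a, Rpl7a and Rps12 keep most of their difference.

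The rest of the translation machinery was examined through lists of related genes. Translation initiation factors, which load mRNA and the initiator tRNA onto the ribosome, had a median log2 ratio of 0.31 in TGF-beta1 over vehicle, and 15 of 27 (55.6%) were at least 1.2-fold higher and 0 lower, where 18.0% of all genes were higher and 17.7% lower. Eif2b3, of the exchange factor for eIF2, was at 18.4, 31.5 and 18.3 CPM in Osm, TGF-beta1 and vehicle, a TGF-beta1 ratio of 1.72. Eif2s2, a subunit of eIF2, was at 137, 236 and 148 CPM, a ratio of 1.60, and Eif4g2, the most abundant of the list, at 1047, 1377 and 1111 CPM, a ratio of 1.24. With Osm over vehicle 0 of the 27 were past 1.2-fold in either direction, where 4.92% of all genes were higher and 4.67% lower. Among protein-coding genes at or above 100 CPM these shares were 1.88% and 1.96%, so a count of 0 does not set this list apart.

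The ribosome biogenesis list, of factors that process ribosomal RNA and assemble the subunits in the nucleolus, stood highest with TGF-beta1. Its median log2 ratio over vehicle was 0.45, and 39 of 46 genes were at least 1.2-fold higher and 0 lower, where 18.0% and 17.7% of all genes were. Nucleolin (Ncl) was at 341, 499 and 349 CPM in Osm, TGF-beta1 and vehicle, a TGF-beta1 ratio of 1.43 (interval 1.39 to 1.48). Rrp12, needed for export of the pre-ribosome in yeast, was at 22.9, 38.4 and 22.4 CPM, and Dimt1, which methylates small-subunit ribosomal RNA, at 11.8, 17.6 and 10.5 CPM, for TGF-beta1 ratios of 1.71 and 1.68. Fbl, the methyltransferase of box C/D particles, had a TGF-beta1 ratio of 1.24, and its partner Nop56 1.52. With Osm over vehicle the median was 0.05 and 0 of 46 were past 1.2-fold, where 4.92% of all genes were higher and 4.67% lower. Since few genes of the whole table passed the rule with Osm, a count of 0 does not set this list apart either.

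Ribosomal protein chaperones and importins, which escort new subunits to the nucleus, were at least 1.2-fold higher in 8 of 18 cases (44.4%) with TGF-beta1 and lower in 0, against 18.0% and 17.7% of all genes. Heatr3, the importer of Rpl5, was at 32.3, 54.4 and 38.0 CPM in Osm, TGF-beta1 and vehicle, and the importin Kpnb1 at 400, 540 and 394 CPM, for TGF-beta1 ratios of 1.43 and 1.37. The RNA polymerase I and III list was near the background in its higher genes and under it in its lower ones with TGF-beta1, with 6 of 29 higher (20.7%, against 18.0% of all genes) and 2 lower (6.90%, against 17.7%). Polr1a, the catalytic subunit of RNA polymerase I, had a TGF-beta1 ratio of 1.47, Polr3gl 0.687, and the rDNA transcription factor Ubtf 0.992. The mitochondrial ribosomal proteins, encoded by separate nuclear genes, had 32 of 77 higher (41.6%, against 18.0%) and 0 lower (against 17.7%) and a median log2 ratio of 0.22 with TGF-beta1. Mrps22 and Mrps26 had TGF-beta1 ratios of 1.56 and 1.44. With Osm over vehicle, 0 of 18, 1 of 29 and 4 of 77 in these lists were at least 1.2-fold higher, where 4.92% of all genes were.

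Other mRNAs known or listed as TOP mRNAs split. In TGF-beta1 over vehicle, 9 of the 26 genes of elongation and other TOP mRNAs (34.6%, against 18.0% of all genes) were at least 1.2-fold higher and 0 lower (against 17.7%). The most abundant of them were slightly lower with TGF-beta1. Eef1a1, the elongation factor that delivers tRNA, was at 6952, 6498 and 7067 CPM in Osm, TGF-beta1 and vehicle (TGF-beta1 ratio 0.919), and Eef2, the translocase, at 2810, 2584 and 2750 CPM (ratio 0.939). Tpt1 was at 1610, 1454 and 1693 CPM (ratio 0.859). Above vehicle were Hnrnpa1 with a TGF-beta1 ratio of 1.46, the small nucleolar RNA host gene Snhg12 with 1.75, and Npm1, the nucleolar protein nucleophosmin, with 1.23.

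Among the regulators of these mRNAs, 5 of 31 genes of the mTORC1 list were at least 1.2-fold higher with TGF-beta1 (16.1%, against 18.0% of all genes) and 3 lower (9.68%, against 17.7%), so the list as a whole did not exceed the background. Rheb, the activating GTPase, was at 136, 182 and 128 CPM in Osm, TGF-beta1 and vehicle, a TGF-beta1 ratio of 1.42. Eif4ebp1, the translational repressor that mTORC1 inactivates, and Larp1, the TOP-binding protein, had TGF-beta1 ratios of 1.32 and 1.29. The mTOR inhibitor Deptor had a ratio of 0.693 and the stress-induced inhibitor Sesn1 0.725, while Mtor itself was at 0.976 and the kinase gene Rps6kb1 at 1.05. Myc, the transcription factor that drives ribosome production, was at 63.3, 92.5 and 63.3 CPM in Osm, TGF-beta1 and vehicle, and its antagonist Mxd4 at 146, 87.9 and 150 CPM. Both belong to a list of ribosomal stress, p53 and Myc genes, of which 2 of 20 were at least 1.2-fold higher and 3 lower with TGF-beta1, under the 18.0% and 17.7% of all genes. With Osm 1 was higher and 1 lower, near the 4.92% and 4.67% of all genes. The TGF-beta1 ratios were 1.46 for Myc and 0.584 for Mxd4, and the Osm ratios 1.00 and 0.973. With Osm, 0 of 31 genes of the mTORC1 list were higher (against 4.92% of all genes) and 1 lower (against 4.67%). Against the same shares, 0 of the 26 elongation and other TOP genes were past 1.2-fold. The mRNA levels do not measure the activity of these proteins.

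**Figure D4:**
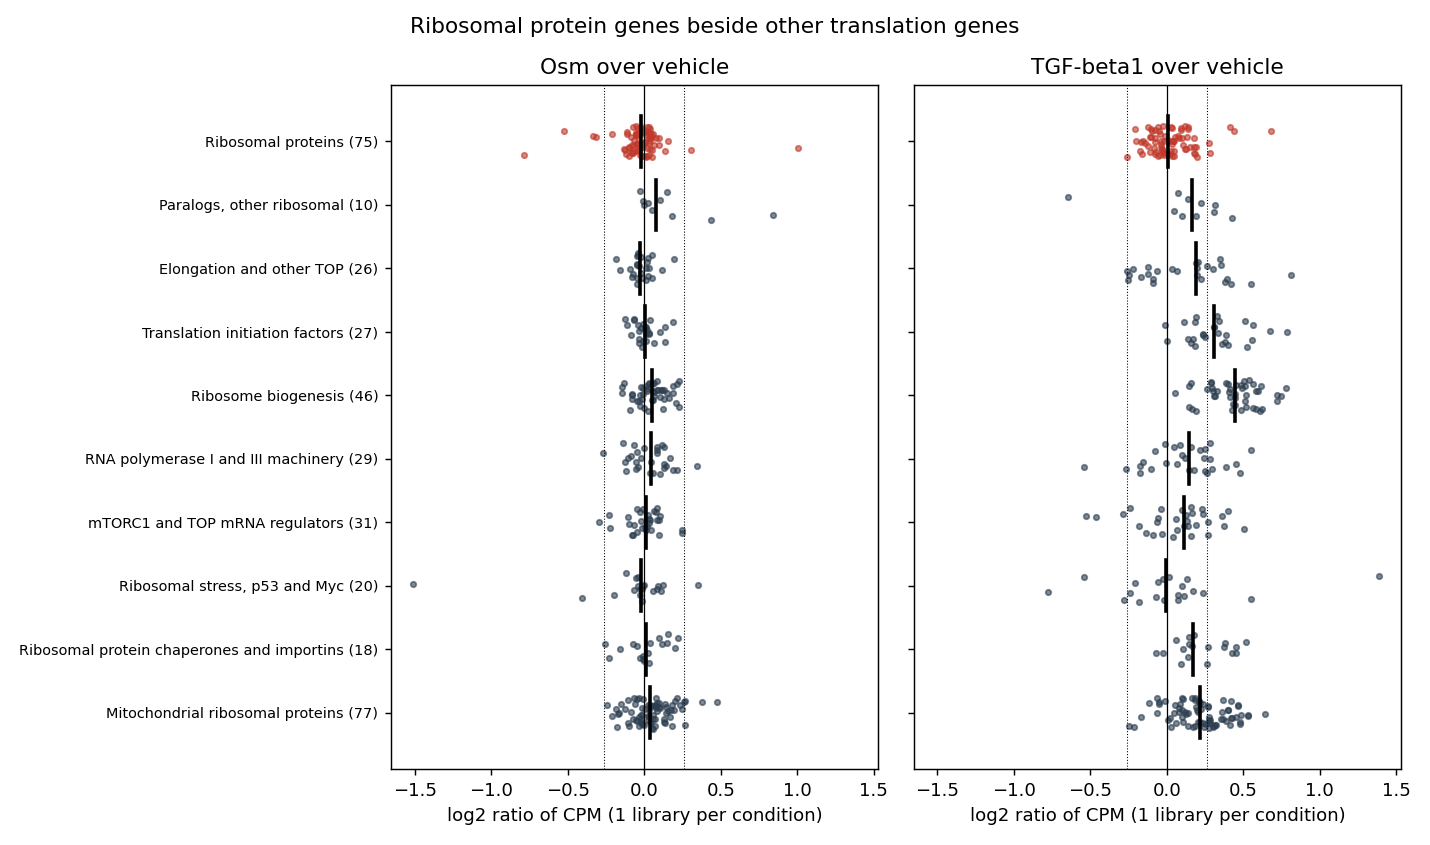
Log2 ratios of CPM for the ribosomal protein genes (red) and the genes of 9 other lists (dark; number with at least 1 CPM in brackets) in Osm over vehicle and TGF-beta1 over vehicle, 1 library per condition; black bars are medians and dotted lines mark 1.2-fold. The ribosomal protein genes sit around 0 in both panels, and in the TGF-beta1 panel ribosome biogenesis, with a median of 0.45, and initiation factors, with 0.31, sit to the right.

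Among the paralogs of standard subunits, 3 had next to no counts. Rpl3l, of muscle, and Rpl10l, of testis, had 0 counts in all 3 libraries, where a count of 0 allows up to 3 counts (0.173, 0.163 and 0.163 CPM in Osm, TGF-beta1 and vehicle), and Rpl39l had 1, 0 and 5 counts. Rpl22l1, the paralog of Rpl22, was at 51.2, 64.0 and 51.4 CPM in Osm, TGF-beta1 and vehicle, a TGF-beta1 ratio of 1.25 (interval 1.14 to 1.36), beside 0.867 for Rpl22 itself at 190, 171 and 197 CPM. Rps27l, the paralog of Rps27, was at 68.1, 77.9 and 66.8 CPM (TGF-beta1 ratio 1.17), and Rpl7l1, which acts in assembly, had a TGF-beta1 ratio of 1.24. Of the 10 genes outside the name pattern with at least 1 CPM, 1 was at least 1.2-fold higher and 0 lower with Osm, and with TGF-beta1 2 were higher and 1, Rps27rt, was lower, counts too small to set against the all-gene shares. Among 65 ribosomal protein pseudogenes with at least 1 CPM, 7 were at least 1.2-fold higher (10.8%, against 4.92% of all genes) and 2 lower (3.08%, against 4.67%) with Osm. With TGF-beta1 5 were higher (7.69%, against 18.0%) and 12 lower (18.5%, against 17.7%). Rack1, the scaffold protein of the small subunit, was at 969, 987 and 937 CPM.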

How the data were processed

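The authors deposited 2 tables over the same Ensembl genes, raw read counts and FPKM values, with 1 library each for Osm, TGF-beta1 and vehicle. mRNA was captured by its poly(A) tail and primed with random hexamers; per the labels' protocols; whether strand was kept is not stated, so antisense reads cannot be told apart. Build mm39 and the tools CASAVA, HISAT2, HISAT and TopHat2 come from the submitters' processing notes. The counter and annotation were not given in the sources used here. FPKM values of the authors equal count over gene length and a DESeq2-scaled library size.

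CPM values were computed from the counts with edgeR 4.0.16 (R 4.3.3), whose TMM factors were 1.002, 0.9945 and 1.0035 for Osm, TGF-beta1 and vehicle. Genes with at least 1 CPM in a library entered ratios (13712). Log2 ratios used a prior count of 0.5. Fold ratios are plain CPM ratios. Intervals are exact and reflect counting error alone, and without molecular identifiers they may be too narrow. With 1 library per condition there was no test. DESeq2 1.42.0 size factors, unscaled totals, FPKM, other prior counts and filters, and the treatment of copies were alternatives. Copies were found with 50-base windows of GENCODE M21 transcripts (GRCm38), whose coordinates were not used with the mm39 table. The counting and calling steps were tested on simulated data. Python 3.11.15, numpy 2.4.6, scipy 1.17.1, pandas 2.3.3, Biopython 1.88 and matplotlib 3.10.9 did the rest.

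The members and lists were chosen with earlier results of these data known. Genes named are the 6 highest and 6 lowest ratios per comparison among members at 10 CPM or more, every member past 2-fold, the 5 highest and lowest by FPKM in vehicle, a fixed set of well-known members, and from each list the 2 largest ratios per comparison, the most abundant gene and a fixed set. Ubb, Clhc1 and the copies were added after values were seen, and some genes the rule takes are not reported here by name.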

Additional observations from a re-analysis of the deposited data

How the results depend on the processing

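Changing one choice at a time over the 12 summaries gave 74 values close to the reported ones. Another 34 moved beyond counting error or 1.5 times in a count. There were 0 in which a difference whose interval excluded 1 changed sides, and the cause of each move was not tested. The tally does not measure stability, because some values could not move. A prior count does not enter a summed ratio, and the authors' FPKM repeat the DESeq2 scaling, so the same values enter under both names. The summed ratio of Osm over vehicle, 0.9997 as reported, turned direction between settings, with intervals on opposite sides of 1. It was 0.9955 for Osm over vehicle and 0.978 for Osm over TGF-beta1 with DESeq2 size factors and likewise with the authors' FPKM, while unscaled totals gave 1.0075 for TGF-beta1 over vehicle and 0.9907 between the ligands. Leaving out genes with at least 20% of windows shared gave 0.9906 for Osm and 1.0018 for TGF-beta1, each over vehicle, and 0.9889 for Osm over TGF-beta1. Adding named pseudogenes gave 1.0038 for Osm over vehicle and 0.9889 for Osm over TGF-beta1. Adding all copies, an alternative chosen after seeing the data, gave 1.0038 for Osm and 1.0109 for TGF-beta1, each over vehicle. Between the ligands it gave 0.993. The counts of genes past 1.2-fold or 2-fold rest on few genes. Rps27a fell just under 2-fold in Osm over vehicle with DESeq2 size factors, FPKM, named pseudogenes or all copies. It was itself left out by the 20% rule on shared windows, so the 2-fold count was 0 under each of the 5, of which FPKM repeats the DESeq2 scaling. The 2-fold count of Osm over TGF-beta1 was 0 with unscaled totals, with either addition and under the 20% rule. Under that rule, the 1.2-fold counts were 0 higher and 1 lower in Osm over vehicle and 1 higher in TGF-beta1 over vehicle. They were 0 higher and 2 lower in Osm over TGF-beta1. The rule takes the share over all transcripts of a gene, so it does not remove every gene with many copies. Rpl21 (14.9% of windows shared, 46 copies) and Rps10 (18.7%) stayed in, and they were the genes still counted. The count lower in Osm over vehicle was 0 with either addition. With all copies added, TGF-beta1 over vehicle had 3 higher and 1 lower, and Osm over TGF-beta1 2 lower. With unscaled totals TGF-beta1 over vehicle had 1 lower. No paired analysis was possible because each condition has 1 library. Depth limits Rpl24 and Rps10, and the error between cultures is unknown.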
